A study of Mus musculus with 7 samples.

Results

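The lymphocyte genes described here are 29 genes that mark T, natural killer (NK) and B cells. They were chosen by name, with earlier results of these data known, and all 29 were found among the 21878 genes of the count table. Of these, 19 belong to T and NK cells and 10 to B cells. The tissue was abdominal aorta. The mice were C57BL/6 males, 8 weeks old, given angiotensin II (Ang II) over a period of up to 28 days. Ang II raises blood pressure and is used in hyperlipidaemic mice to produce aneurysms of the aorta. The 4 libraries labelled ApoE-/-Nur77-/- (double knockout, DKO 1 to DKO 4) were set against the 3 labelled ApoE-/- (ApoE 1 to ApoE 3). By label, loss of ApoE, an apolipoprotein that clears plasma lipoproteins, and exposure to Ang II were common to both groups. Nur77 is the orphan nuclear receptor encoded by Nr4a1, an immediate early gene of antigen receptor signalling in lymphocytes. The labels name no conditional driver, pooling or clone, and do not say whether each library came from its own mouse, so p-values measure the spread between these libraries.

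T cells recognise antigen through a receptor whose signal is carried by the CD3 chains and passed on by the kinases Lck and Zap70. B cells use an immunoglobulin receptor whose signal is carried by the paired chains Cd79a and Cd79b. In hyperlipidaemic mice, T and B cells gather in the adventitia of the aorta, where they can form lymphoid aggregates next to lymph vessels and nearby lymph nodes.

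Libraries held 19295287 to 21727192 gene counts, and CPM, the counts of a gene scaled to TMM library sizes, compares 1 gene between libraries. A count of 0 allowed up to 3 counts, or 0.138 to 0.155 CPM on library totals before TMM scaling. Counting error alone is covered by this limit. On the TMM scale used below, 3 counts came to 0.164 CPM in ApoE 3 (Foxp3). FPKM values, the authors' deposited levels per kilobase, are used to compare genes. The genes named in the labels did not separate the groups as labelled. Nr4a1 was read at 46.2 to 92.7 CPM in the DKO libraries and at 56.4 to 193 CPM in the ApoE libraries, and Apoe, deleted in both groups by label, at 18.3 to 34.7 CPM in the DKO libraries and at 184 to 250.3 CPM in the ApoE libraries (log2 fold change -2.95, edgeR adjusted p = 0.0227). Directions below are therefore those of the libraries as labelled. ApoE 2 and ApoE 3 also stood apart in 6 atrial cardiomyocyte markers, which summed to 11.6 to 26.5 CPM in the DKO libraries and to 22.4, 291 and 1070.1 CPM in ApoE 1, ApoE 2 and ApoE 3.

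All of the lymphocyte genes had at least 1 count in every library, from 1 count of Cr2 in ApoE 3 to 1219 counts of Il7r in DKO 3. The immature lymphocyte genes Rag1, Rag2, Dntt, Ptcra, Vpreb1 and Igll1 summed to 0.0958 to 0.358 CPM in the DKO libraries and to 0.327 to 0.598 CPM in the ApoE libraries, with Rag2 and Igll1 at 0 in all 7. Among the T and NK genes Il7r, the interleukin-7 receptor, had the highest level per length (9.77 ± 5.37 FPKM in DKO, SD, n = 4, and 5.80 ± 1.85 FPKM in ApoE, SD, n = 3). The granule membrane gene Nkg7 followed with 5.28 ± 1.62 FPKM in DKO and 2.88 ± 0.666 FPKM in ApoE. Il7r and Nkg7 ranked first and second of the T and NK genes in both groups. Their FPKM ranges overlapped in DKO and not in ApoE. Foxp3, the transcription factor of regulatory T cells, and Ncr1, an activating receptor of NK cells, held the 2 lowest places, at 0.208 and 0.164 FPKM in DKO and 0.0720 and 0.140 FPKM in ApoE. Of the B genes, Cd79a (5.74 ± 3.97 FPKM in DKO, 4.04 ± 5.74 FPKM in ApoE) and Cd79b (5.49 ± 3.39 FPKM in DKO, 4.23 ± 4.64 FPKM in ApoE) stood highest. Within a library, the FPKM ratio of Cd79b to Cd79a was 0.899 to 1.16 in DKO. In ApoE 1 to ApoE 3 it was 1.59, 0.898 and 5.08. Cr2, the complement receptor of B and follicular dendritic cells, stood lowest (0.387 ± 0.382 FPKM in DKO, 0.233 ± 0.354 FPKM in ApoE).

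DKO 3 was the highest of the 7 libraries for 19 of 19 T and NK genes and for 10 of 10 B genes, whereas it was highest for 10.3% of the 14609 genes tested. ApoE 3 was the lowest library for 16 T and NK genes and for 8 B genes, against 20.5% of all genes tested. Below DKO 3 the cell types parted: DKO 1 was second for 13 of 19 T and NK genes, and ApoE 2 was second for 9 of 10 B genes. In bulk tissue, fewer cells of a type and less RNA per cell cannot be told apart.

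Summed over the 19 T and NK genes, CPM came to 123, 72.0, 162 and 62.4 in DKO 1 to DKO 4, and to 67.3, 86.5 and 39.7 in ApoE 1 to ApoE 3. The summed B genes came to 76.1, 46.3, 145 and 34.4 CPM in DKO 1 to DKO 4, against 20.4, 110.6 and 12.2 CPM in ApoE 1 to ApoE 3. Both sums overlapped between the groups: DKO 2 and DKO 4 lay below ApoE 2 in T and NK genes, and 3 of the 4 DKO libraries lay below ApoE 2 in B genes. Il7r was the largest part of the T and NK sum, and Cd22 of the B sum, in every library. Without Il7r the T and NK sums were 70.3, 49.9, 108 and 46.3 CPM in DKO 1 to DKO 4. In ApoE 1 to ApoE 3 they were 44.1, 58.4 and 24.2 CPM. Without Cd22 the B sums were 44.2, 28.8, 99.4 and 17.0 CPM in DKO 1 to DKO 4. In ApoE 1 to ApoE 3 they were 11.1, 77.2 and 5.73 CPM. B genes also varied more within a group. Their median SD of log2 CPM was 0.95 in DKO and 2.04 in ApoE, compared with 0.59 in DKO and 0.70 in ApoE for T and NK genes, and 0.22 in DKO and 0.19 in ApoE for all genes tested. Against genes of similar level (mean log2 CPM within 0.5), the SD of the B genes was above that of 75.9% to 95.4% of genes in DKO and 80.8% to 98.7% in ApoE. That of the 18 T and NK genes tested was not uniformly wide: it was above that of 8.32% (Foxp3) to 98.3% (Il7r) of similar genes in DKO and 7.38% (Gzma) to 92.7% (Il7r) in ApoE.

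**Figure D1:**
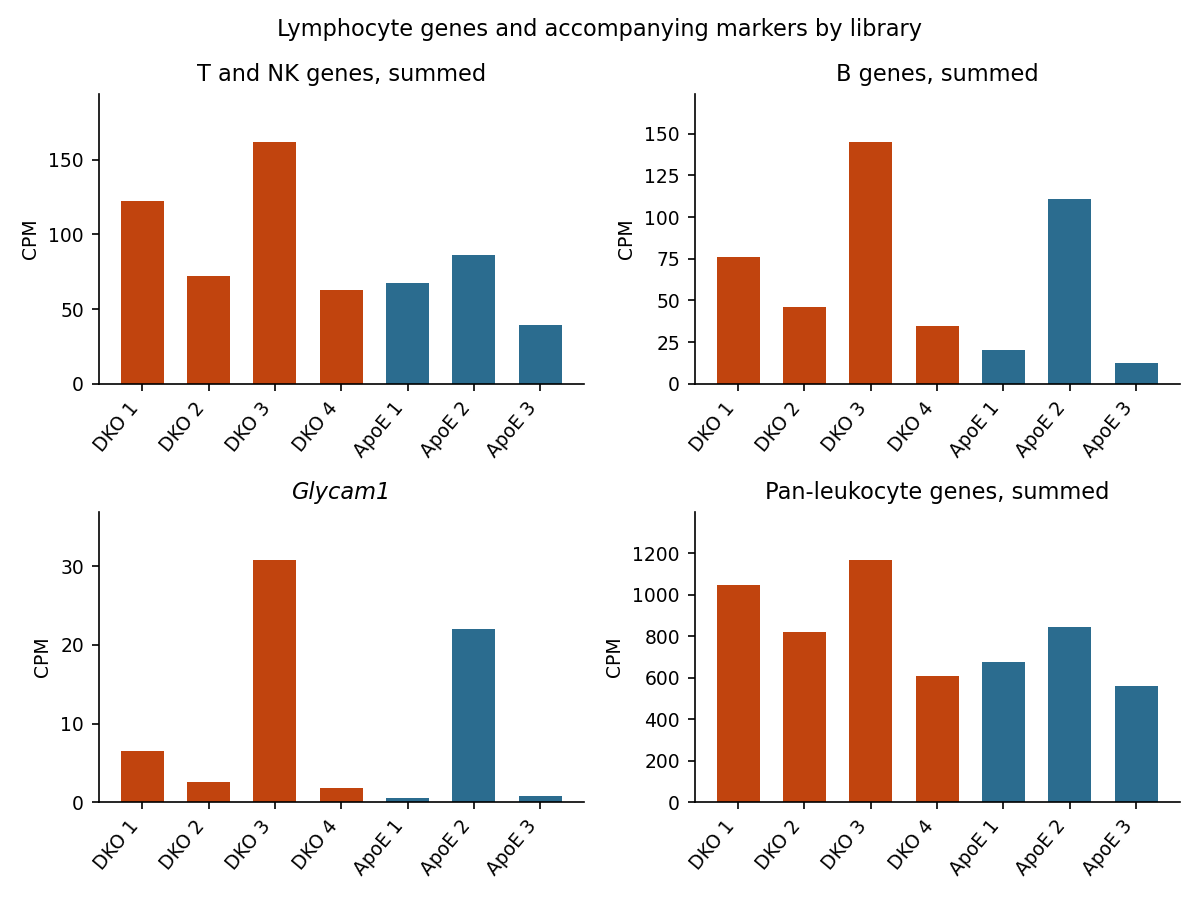
CPM (vertical axes, from 0) in each library for the summed T and NK genes, the summed B genes, Glycam1 and the summed pan-leukocyte markers, DKO in orange and ApoE in blue, 1 bar per library. DKO 3 is highest in all panels, and ApoE 2 is second in the B genes (110.6 CPM) and in Glycam1 (22.1 CPM).

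Called means an adjusted p under 0.05 in edgeR's quasi-likelihood test with Benjamini-Hochberg adjustment over all genes tested. Of the 28 lymphocyte genes that passed the filter on low counts, 0 were called in either direction. In that test 0% of all genes were called higher and 0.0274% lower (4 genes, none of them a lymphocyte gene). At an unadjusted p under 0.05, 3 of 18 T and NK genes were higher (Cd3e, Cd5 and Nkg7) and 0 of 10 B genes, against 8% of all genes higher and 11.8% lower. The fold changes were mostly positive all the same: 17 of 18 T and NK genes (median log2 fold change 0.72) and 10 of 10 B genes (median 0.68) had one above 0, beside 47.4% of all genes (median -0.02). DESeq2's Wald test called 0 of the 26 lymphocyte genes to which it gave an adjusted p (none for Foxp3 and Ctla4), with 3.35% of all genes called higher and 4.96% lower. Limma voom with quality weights called 2 higher, Foxp3 (adjusted p = 0.0356) and Cd3e (adjusted p = 0.0498), with 6.17% of all genes called higher and 10% lower. Under voom the median of the B genes was 2.05.

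**Figure D2:**
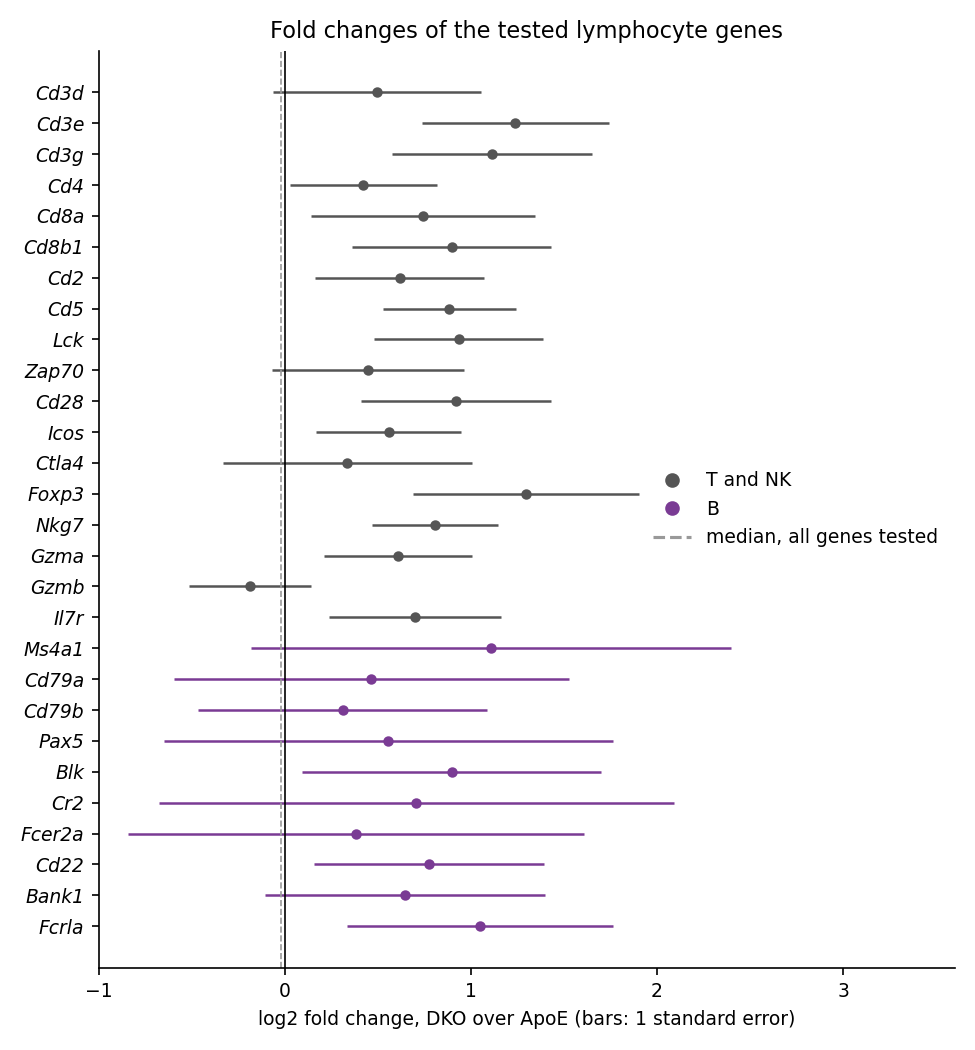
Log2 fold change of the 28 tested lymphocyte genes, DKO over ApoE (horizontal axis; bars are 1 standard error), T and NK genes in grey and B genes in purple. Gzmb (-0.19) is the only gene left of 0, and the bars of 7 B genes reach below 0.

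Promoter windows from RefSeq (GRCm38.p6; 250 bases before to 50 after a start site) were found for 21 of the 29 lymphocyte genes, 28 windows in all. They were searched on both strands for the Nur77 monomer site NBRE (AAAGGTCA), the ETS site ACAGGAAGT, the RUNX site AACCACA, the EBF site (TCCC and GGGA with any 2 bases between) and the octamer ATTTGCAT. Each window printed holds 1 match. The NBRE was in 1 of 28 windows, at 1 of the 3 Zap70 start sites in RefSeq, and in 1.51% of all 32851 windows. The ETS site was in 4 (Cd3e, Cd79a, Il7r and Lck), and in 1.03% of all windows. The RUNX site was in 6 windows, of Gzma, Gzmb, Il7r, Lck and Ncr1 (5.27% of all), the EBF site in 1, of Cd22 (0.904%), and the octamer in 0 (1.74%). The 6 RUNX windows belong to 5 genes, as the Ncr1 windows (chr7:4337465-4337764 and chr7:4337474-4337773) overlap and hold the same match. These matches describe the letters of the windows only. Shown here 5′ to 3′ on the gene's strand, with the matches in capitals (in Cd3e and Zap70 the motif reads on the opposite strand), are the windows of Cd3e (chr9:45009562-45009861, minus strand) and Cd79a (chr7:24897247-24897546, plus strand), each with an ETS match. The windows of Cd3d and Cd3g held none of the motifs. Also printed are the Zap70 window that holds the NBRE (chr1:36778734-36779033, plus strand) and the Cd22 window that holds the EBF site (chr7:30878979-30879278, minus strand).
Cd3e: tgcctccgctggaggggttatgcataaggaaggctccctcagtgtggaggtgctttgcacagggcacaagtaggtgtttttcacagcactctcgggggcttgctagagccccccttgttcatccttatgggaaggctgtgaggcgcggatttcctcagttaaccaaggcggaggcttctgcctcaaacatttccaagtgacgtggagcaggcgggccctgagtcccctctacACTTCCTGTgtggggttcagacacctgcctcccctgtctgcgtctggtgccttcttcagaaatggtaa
Cd79a: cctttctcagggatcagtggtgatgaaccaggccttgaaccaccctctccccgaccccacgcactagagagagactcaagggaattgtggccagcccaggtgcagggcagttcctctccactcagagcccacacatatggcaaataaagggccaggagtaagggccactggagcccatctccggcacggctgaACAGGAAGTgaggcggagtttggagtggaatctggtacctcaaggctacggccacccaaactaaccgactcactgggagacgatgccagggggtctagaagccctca
Zap70: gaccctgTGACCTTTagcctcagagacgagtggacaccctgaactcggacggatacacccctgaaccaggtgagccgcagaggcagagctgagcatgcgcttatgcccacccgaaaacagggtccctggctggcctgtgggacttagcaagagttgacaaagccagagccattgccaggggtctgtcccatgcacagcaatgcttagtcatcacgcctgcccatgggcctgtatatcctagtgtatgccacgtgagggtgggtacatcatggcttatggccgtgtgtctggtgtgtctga
Cd22: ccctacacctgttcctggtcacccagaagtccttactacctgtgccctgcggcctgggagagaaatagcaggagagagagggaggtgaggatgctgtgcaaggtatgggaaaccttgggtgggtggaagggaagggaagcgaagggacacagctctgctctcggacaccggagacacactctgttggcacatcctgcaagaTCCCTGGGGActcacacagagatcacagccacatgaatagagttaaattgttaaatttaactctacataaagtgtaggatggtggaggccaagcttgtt

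The genes of the CD3 complex lie together on mouse chromosome 9 (GRCm38.p6), Cd3g at 44969572 to 44980431, Cd3d at 44981769 to 44987052 and Cd3e at 44998735 to 45009663. Cd3e, the epsilon chain, was read at 3.93, 3.19, 5.64 and 2.20 CPM in DKO 1 to DKO 4, against 1.64, 2.44 and 0.655 CPM in ApoE 1 to ApoE 3. Only DKO 4 reached into the ApoE range, just below ApoE 2. Its log2 fold change of 1.24 (SE 0.50) had an edgeR adjusted p of 0.233. Cd3g, the gamma chain, was at 5.12, 4.22, 8.52 and 2.71 CPM in DKO 1 to DKO 4 and at 3.57, 2.62 and 0.927 CPM in ApoE 1 to ApoE 3 (log2 fold change 1.11, SE 0.54). Here too DKO 4 alone lay under the highest ApoE library. Cd3d, the delta chain, had a smaller difference (2.75 ± 1.46 CPM, SD, n = 4, in DKO and 1.95 ± 1.07 CPM, SD, n = 3, in ApoE; log2 fold change 0.50, SE 0.56). With 1 library left out, the log2 fold change of Cd3d lay between 0.11 (without DKO 3) and 0.92 (without ApoE 2), and that of Cd3g between 0.73 (without ApoE 3) and 1.53 (without ApoE 1).

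Of the coreceptors, Cd4 marks helper T cells and is also made by some myeloid cells. Its levels were 14.7, 7.97, 20.2 and 9.97 CPM in DKO 1 to DKO 4, against 8.73, 14.5 and 6.33 CPM in ApoE 1 to ApoE 3, so the groups overlapped (log2 fold change 0.42, SE 0.39). Cd8a, a chain of the coreceptor of cytotoxic T cells, was at 3.97, 3.09, 10.3 and 3.07 CPM in DKO 1 to DKO 4 and at 3.07, 4.83 and 1.25 CPM in ApoE 1 to ApoE 3 (log2 fold change 0.74, SE 0.60). DKO 3 stood more than 2-fold above every other library in Cd8a, and the remaining DKO libraries lay within the ApoE range. Its partner chain Cd8b1 had the same highest and lowest library (4.57 CPM in DKO 3, 0.655 CPM in ApoE 3; log2 fold change 0.90, SE 0.53). Dropping DKO 3 left log2 fold changes of 0.14 for Cd4, 0.14 for Cd8a and 0.42 for Cd8b1, and dropping ApoE 2 gave 0.81 for Cd4, 1.24 for Cd8a and 1.27 for Cd8b1.

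Within a library, the log2 ratio of Cd8a to Cd4 counts was -1.47 ± 0.40 in DKO (SD, n = 4) and -1.80 ± 0.45 in ApoE (SD, n = 3). The difference of 0.32 had an exact two-sided permutation p of 0.4, where 35 splits allow no p below 0.0571. Foxp3 to Cd3e gave -1.40 ± 0.29 in DKO and -1.71 ± 0.53 in ApoE, a difference of 0.30 (exact permutation p = 0.343). Cd79a to Cd3e gave 1.22 ± 0.40 in DKO and 0.96 ± 1.73 in ApoE, a difference of 0.26 (exact permutation p = 0.8). The groups overlapped in all 3 ratios. With these splits no ratio could reach a permutation p under 0.05, so the test cannot decide on a shift in balance between these lymphocyte classes. Adjusted over the 3 ratios by Benjamini-Hochberg, the exact permutation p was 0.6 for Cd8a to Cd4, 0.6 for Foxp3 to Cd3e and 0.8 for Cd79a to Cd3e. The Cd79a to Cd3e difference turned to -0.42 without ApoE 3 and -0.03 without ApoE 1, and was 0.07 without DKO 3 and 1.23 when ApoE 2 was dropped. The Cd8a to Cd4 difference was 0.07 without ApoE 3 and 0.15 without DKO 3. For Foxp3 to Cd3e it was 0.18 when DKO 4 was dropped, 0.08 when ApoE 1 was and 0.60 when ApoE 2 was.

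The receptor-proximal kinases of T cells had positive fold changes that did not pass the test. Lck, the Src-family kinase that phosphorylates the CD3 chains, was at 7.56, 8.11, 13.3 and 4.35 CPM in DKO 1 to DKO 4, against 3.97, 6.62 and 2.45 CPM in ApoE 1 to ApoE 3 (log2 fold change 0.93, SE 0.45, edgeR adjusted p = 0.302). Zap70, the kinase recruited to phosphorylated CD3, averaged 2.81 ± 0.617 CPM in DKO (n = 4) and 2.05 ± 1.30 CPM in ApoE (n = 3). Its ApoE libraries spread 5.21-fold, from 0.600 CPM in ApoE 3 to 3.13 CPM in ApoE 2, and the DKO libraries 1.69-fold. The log2 fold change of Zap70 was 0.015 without ApoE 3 and 0.88 without ApoE 2, and that of Lck 0.62 without DKO 3 and 1.37 without ApoE 2.

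Cd5, a surface regulator that dampens antigen receptor signals on T cells and a subset of B cells, was the only lymphocyte gene whose groups did not overlap. It was read at 3.83, 2.58, 4.26 and 2.97 CPM in DKO 1 to DKO 4, and at 2.28, 2.21 and 1.04 CPM in ApoE 1 to ApoE 3. The lowest DKO library lay close above the highest ApoE library, and the log2 fold change of 0.88 (SE 0.36) had an edgeR adjusted p of 0.229. That makes 1 of 18 T and NK genes without overlap and higher in DKO, beside 7.08% of all genes tested (and 9.24% lower). Cd2, an adhesion molecule of T and NK cells, overlapped (4.97 ± 1.61 CPM in DKO, 3.23 ± 1.67 CPM in ApoE), with a log2 fold change of 0.62 that was 0.24 when ApoE 3 was dropped.

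Among the costimulatory genes, Cd28, which delivers the second signal for T cell activation, was at 6.61, 2.95, 9.63 and 3.48 CPM in DKO 1 to DKO 4 and at 2.73, 4.50 and 1.75 CPM in ApoE 1 to ApoE 3 (log2 fold change 0.92, SE 0.51). DKO 1 and DKO 3 lay above all ApoE libraries and DKO 2 and DKO 4 among them. Icos, an inducible costimulator, and Ctla4, a checkpoint receptor that competes with Cd28 for ligand, were read at low levels, 0.972 to 2.53 and 0.358 to 1.69 CPM in DKO against 0.927 to 1.38 and 0.218 to 1.19 CPM in ApoE. Foxp3 had the highest fold change of the lymphocyte genes tested (log2 1.29, SE 0.61, edgeR adjusted p = 0.287). Its levels were 1.34, 1.22, 1.73 and 1.07 CPM in DKO 1 to DKO 4, against 0.347, 1.10 and 0.164 CPM in ApoE 1 to ApoE 3. ApoE 2 lay just above DKO 4, while ApoE 1 and ApoE 3 held 7 and 3 counts. Without ApoE 2 the Foxp3 log2 fold change was 2.36. Without DKO 3 that of Cd28 was 0.54 and that of Icos 0.31.

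Cytotoxic and NK genes were read at low counts. Nkg7, of cytotoxic granules, was at 2.82, 1.97, 4.26 and 2.71 CPM in DKO 1 to DKO 4, against 1.98, 1.79 and 1.25 CPM in ApoE 1 to ApoE 3, with only DKO 2 reaching the ApoE range (log2 fold change 0.81, SE 0.34, edgeR adjusted p = 0.244). Gzma, a granzyme, averaged 1.89 ± 0.887 CPM in DKO and 1.24 ± 0.144 CPM in ApoE. Gzmb, the granzyme that cleaves caspases, had the only negative fold change (1.68, 1.27, 2.35 and 1.48 CPM in DKO 1 to DKO 4, 2.13, 1.38 and 2.29 CPM in ApoE 1 to ApoE 3; log2 -0.19, SE 0.33). ApoE 3, lowest for most T cell genes, was second highest for Gzmb. Ncr1 held 4 to 8 counts per library and did not pass the filter (0.331 ± 0.0200 CPM in DKO, 0.282 ± 0.0729 CPM in ApoE). Il7r, which T cells share with innate lymphoid cells and lymphatic endothelium, was at 52.2, 22.1, 54.1 and 16.2 CPM in DKO 1 to DKO 4 and at 23.2, 28.1 and 15.4 CPM in ApoE 1 to ApoE 3. DKO 1 and DKO 3 lay about level and well above the rest (log2 fold change 0.70, SE 0.46). When DKO 3 was dropped, the log2 fold change was 0.44 for Il7r, 0.24 for Gzma and -0.39 for Gzmb.

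**Figure D3:**
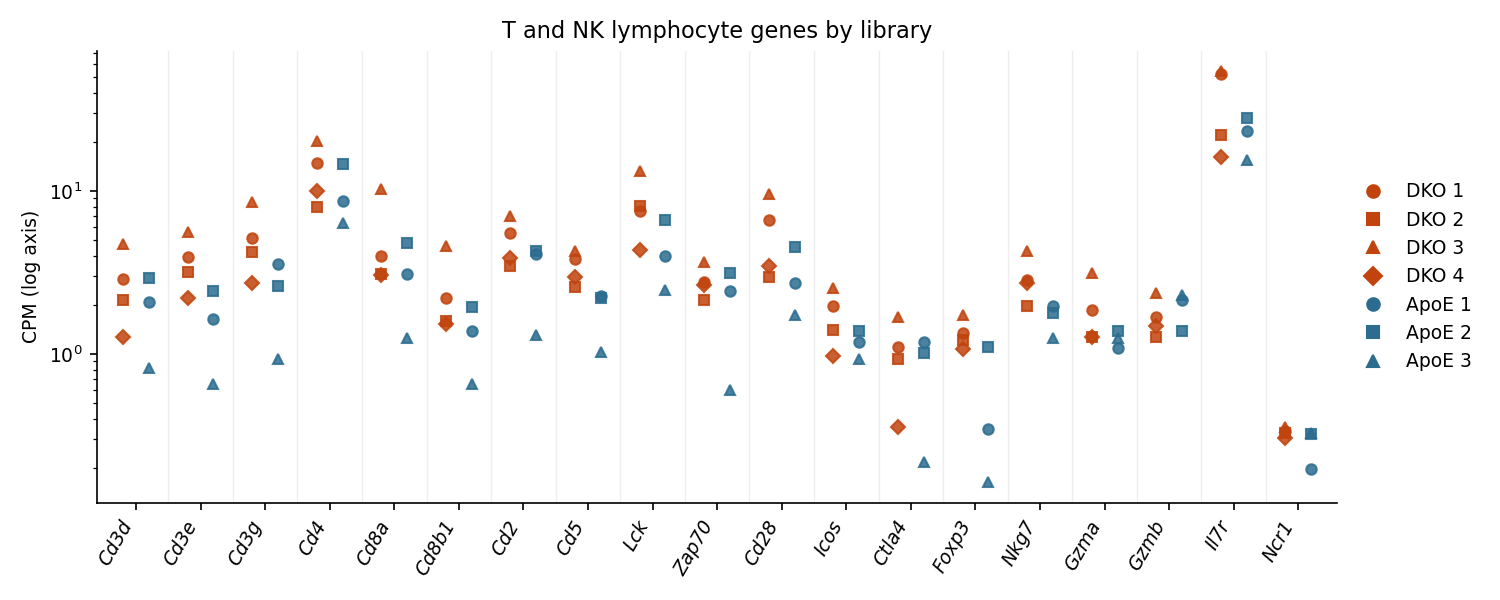
CPM (log axis) of the 19 T and NK genes, with each library as a point, DKO in orange on the left and ApoE in blue on the right of each gene. DKO 3 is the highest point for all 19 genes, and Cd5 is the only gene at which all 4 DKO points (2.58 to 4.26 CPM) lie above all ApoE points.

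B genes varied widely between libraries of the same group. Cd79a (chromosome 7, 24897497 to 24901858) was read at 8.62, 5.95, 19.7 and 4.65 CPM in DKO 1 to DKO 4, against 2.13, 18.5 and 0.491 CPM in ApoE 1 to ApoE 3. DKO 3 and ApoE 2 were nearly equal, and ApoE 3 held 9 counts. Its log2 fold change was 0.46 with a SE of 1.06 (edgeR adjusted p = 0.849). Cd79b, its partner, was at 8.52, 5.16, 17.0 and 5.11 CPM in DKO 1 to DKO 4 and at 3.37, 16.4 and 1.91 CPM in ApoE 1 to ApoE 3 (log2 0.31, SE 0.78). Both chains thus had all DKO libraries above ApoE 1 and ApoE 3, and 3 of 4 below ApoE 2. Their fold changes turned negative without DKO 3 (log2 -0.14 for Cd79a, -0.21 for Cd79b) and without ApoE 3 (-0.083 for Cd79a, -0.14 for Cd79b), as did Cd79b without ApoE 1 (-0.028), and were 2.88 for Cd79a and 1.76 for Cd79b without ApoE 2.

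The B cell surface genes differed in how far they spread. Ms4a1, which encodes CD20, was at 6.46, 2.30, 11.9 and 0.920 CPM in DKO 1 to DKO 4, against 0.397, 6.89 and 0.164 CPM in ApoE 1 to ApoE 3 (log2 1.11, SE 1.29). Cr2 was at 3.78, 2.06, 9.24 and 0.307 CPM in DKO 1 to DKO 4 and at 0.545, 6.44 and 0.0545 CPM in ApoE 1 to ApoE 3 (log2 0.71, SE 1.38). The value of Cr2 in ApoE 3 is a single count, so its 118-fold spread over the ApoE libraries rests on that count. Fcer2a, the low-affinity IgE receptor CD23 of mature B cells, ranged from 0.869 to 9.24 CPM in DKO and from 0.298 to 8.73 CPM in ApoE. Cd22, an inhibitory coreceptor, was at 31.9, 17.4, 45.8 and 17.4 CPM in DKO 1 to DKO 4, against 9.37, 33.4 and 6.49 CPM in ApoE 1 to ApoE 3 (log2 0.77, SE 0.62). It spread the least of the B genes, 2.63-fold in DKO and 5.14-fold in ApoE. Left-out libraries moved the log2 fold change of Ms4a1 between 0.37 (without DKO 3) and 4.23 (without ApoE 2), that of Cr2 between -0.20 and 3.64 and that of Fcer2a between -0.39 and 3.58 for the same libraries. Fcer2a was also negative without ApoE 1 (-0.15) and without ApoE 3 (-0.14). For Cd22 it lay between 0.40 (without ApoE 3) and 1.83 (without ApoE 2).

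The intracellular B cell genes also had DKO 3 as their highest library. Pax5, the transcription factor that fixes B cell identity, was at 2.92, 2.48, 10.7 and 0.869 CPM in DKO 1 to DKO 4 and at 1.24, 7.26 and 0.109 CPM in ApoE 1 to ApoE 3 (log2 0.56, SE 1.21). DKO 4 lay below ApoE 1 in Pax5 and in Cr2, and above it in the other 8 B genes. Blk, a Src-family kinase of B cells, averaged 3.71 ± 2.47 CPM in DKO and 1.98 ± 2.09 CPM in ApoE. Bank1, a scaffold of the B cell receptor, averaged 4.50 ± 3.18 CPM in DKO and 2.87 ± 2.71 CPM in ApoE. Fcrla, an intracellular Fc receptor-like protein, had the smallest p of the B genes (2.91 ± 1.88 CPM in DKO, 1.40 ± 1.17 CPM in ApoE; log2 1.05, SE 0.72, edgeR adjusted p = 0.442). Without DKO 3 the log2 fold change was -0.46 for Pax5, 0.35 for Blk, 0.053 for Bank1 and 0.56 for Fcrla, and dropping ApoE 2 gave 2.63 for Pax5, 2.22 for Blk, 1.77 for Bank1 and 1.96 for Fcrla.

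**Figure D4:**
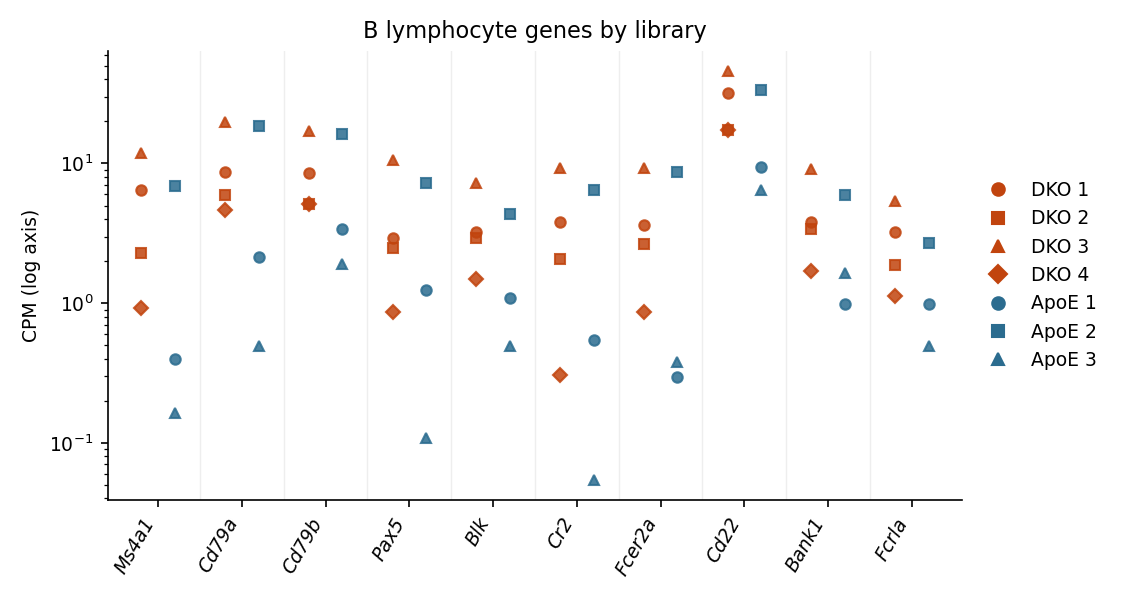
CPM (log axis) of the 10 B genes, with each library as a point, DKO in orange on the left and ApoE in blue on the right of each gene. DKO 3 is the highest point for all 10, ApoE 2 is second for 9, and ApoE 3 falls to 0.0545 CPM for Cr2.

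The size of these differences changed when single libraries were left out. The median log2 fold change of the T and NK genes was 0.41 without DKO 3 and 0.54 without ApoE 3, and 0.92 without DKO 2. That of the B genes was -0.042 without DKO 3, 0.24 without ApoE 1, 0.25 without ApoE 3 and 2.42 without ApoE 2. With ApoE 2 and ApoE 3 both left out, the libraries with the highest atrial markers, the medians were 0.59 and 1.97, and 0 lymphocyte genes were called by edgeR. That last fit, chosen after the data were seen, assumes that the lone ApoE library varies like the 4 DKO libraries.

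**Figure D5:**
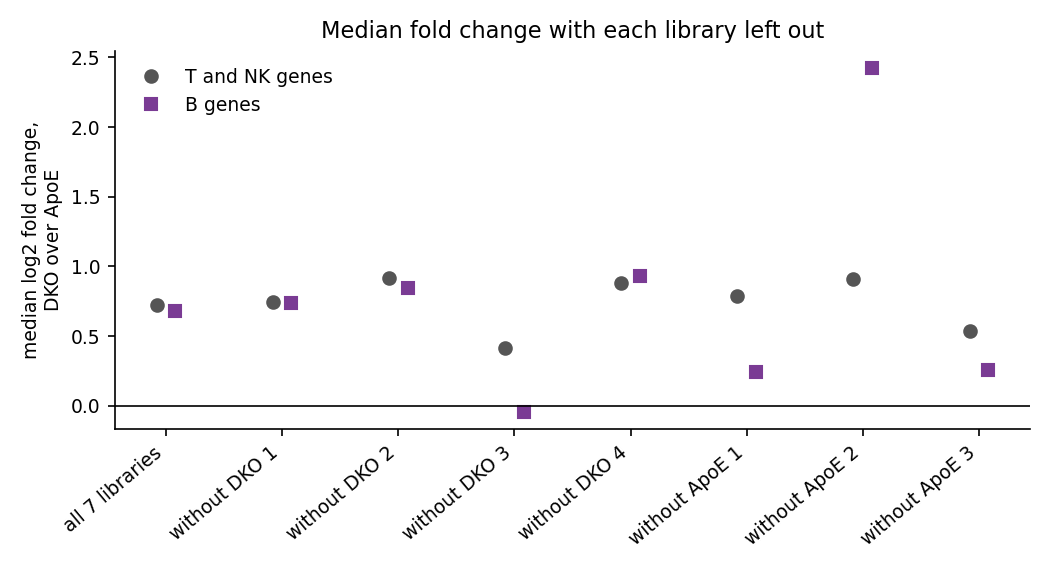
Median log2 fold change, DKO over ApoE (vertical axis), of the T and NK genes (circles) and B genes (squares) in all 7 libraries and with each library left out. The T and NK median stays between 0.41 and 0.92, and the B median between -0.042 and 2.42.

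Further genes of the same cell types were not called either. Of 21 further T cell genes, 19 were tested, 18 had a positive fold change (median log2 0.87) and 0 were called. Those with the smallest p were the adaptor Lcp2 (32.1 ± 13.4 CPM in DKO, 16.2 ± 4.38 CPM in ApoE; log2 0.99, SE 0.38), the adaptor Skap1 (log2 1.44, SE 0.56) and the phosphatase-like regulator Ubash3a (log2 1.37, SE 0.54), with edgeR adjusted p of 0.215, 0.218 and 0.221. Ubash3a was the gene of this list whose groups did not overlap. Lcp2 was highest in DKO 1 (45.9 CPM, against 39.2 CPM in DKO 3), whereas 18 of the 21 were highest in DKO 3. Of 14 further cytotoxic and NK genes, 13 were tested, 11 were positive (median 0.27) and 0 were called. Tbx21, the transcription factor T-bet, had the smallest p (log2 0.82, SE 0.35, edgeR adjusted p = 0.252), followed by Cst7 (0.86, SE 0.54) and Eomes (1.62, SE 1.10). Of 14 further B cell genes, 12 were analysed here and 11 tested, all 11 with a positive fold change (median 0.43) and 0 called. Cd72, Btk and Blnk, which myeloid cells also express, had the smallest p in that list (log2 0.91, SE 0.37; 0.43, SE 0.33; 0.39, SE 0.29).

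Markers of other leukocytes also had mostly positive fold changes, none of them called. The 8 pan-leukocyte markers summed to 610.3 to 1165 CPM in DKO and 559 to 842 CPM in ApoE, with 7 of 8 fold changes positive (median log2 0.47; Ptprc 0.68, SE 0.32; Cd53 0.65, SE 0.33; Cd52 0.60, SE 0.30). All 8 were highest in DKO 3 and 7 were lowest in ApoE 3. The 6 macrophage markers summed to 1995 to 4241 CPM in DKO and 1791 to 2759 CPM in ApoE (6 of 6 positive, median 0.44; Adgre1 0.61, SE 0.30; Fcgr1 0.51, SE 0.25; C1qa 0.46, SE 0.21). All 6 were highest in DKO 3 and 5 were lowest in ApoE 3. The 6 dendritic cell and monocyte markers summed to 116 to 243 CPM in DKO and 92.1 to 169 CPM in ApoE (5 of 6 positive, median 0.40; Itgax 0.59, Ly6c2 0.46, Ccr2 0.33), with 2 of 6 highest in DKO 3 and 5 lowest in ApoE 3. Their part in the lymphocyte result was not tested.

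The 6 markers of lymph node stroma and vessels summed to 122 to 213 CPM in DKO and 57.5 to 156 CPM in ApoE, and 5 of 6 were highest in DKO 3. Glycam1, a ligand for L-selectin on high endothelial venules, the vessels by which lymphocytes enter lymph nodes, was at 6.51, 2.62, 30.7 and 1.79 CPM in DKO 1 to DKO 4, against 0.496, 22.1 and 0.818 CPM in ApoE 1 to ApoE 3. DKO 3 and ApoE 2 had the highest Glycam1 and also the highest B genes. Ccl21a, a chemokine that draws T cells, was at 126, 105, 149 and 135 CPM in DKO 1 to DKO 4 and at 85.6, 86.7 and 47.2 CPM in ApoE 1 to ApoE 3, without overlap (log2 0.82, SE 0.23, edgeR adjusted p = 0.159). This gene was the largest part of the sum of the 6 markers in every library. Cxcl13, a chemokine that draws B cells, overlapped (25.8 ± 12.2 CPM in DKO, 21.2 ± 16.9 CPM in ApoE). Whether lymph node or lymphoid aggregate tissue in the libraries plays a part in the B gene levels was not tested.

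Markers of the wall and its surroundings differed in other ways. The 5 white adipocyte markers summed to 808 to 1162 CPM in DKO and 1636 to 2057 CPM in ApoE, and the 5 fibroblast markers to 2803 to 3959 CPM in DKO and 4400.5 to 4912 CPM in ApoE, both without overlap. Smooth muscle markers (7328 to 27084 CPM in DKO, 14214 to 22196 CPM in ApoE), endothelial markers (1113 to 1490.2 CPM in DKO, 1235 to 1451 CPM in ApoE) and erythroid markers (39.8 to 232 CPM in DKO, 30.4 to 135 CPM in ApoE) overlapped. Median log2 fold changes of these lists were -1.05 for adipocyte (0 of 5 positive), -0.43 for fibroblast (2 of 5), -0.25 for smooth muscle (0 of 5), -0.15 for endothelial (2 of 5), 0.96 for erythroid (3 of 3) and -5.70 for the atrial markers (0 of 5 tested). Their part in the levels of the lymphocyte genes, which are shares of each library, was not tested.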

How the data were processed

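The deposited gene counts, whole numbers with no normalization, and the deposited FPKM values, scaled by the authors for length and depth, came from mRNA libraries made with a strand-marking kit, per the labels' protocols. Trimmomatic, HISAT2, HTSeq, Cufflinks and DESeq and the build GRCm38.p6 are named in the submitters' processing notes; the annotation, tool versions and strand setting were not given in the sources used here. Overlapping genes are therefore uncertain. Columns were matched to libraries by genotype and number. edgeR 4.0.16 (R 4.3.3) was run on TMM-normalised counts of 14609 genes that passed filterByExpr (minimum count 10), 4 DKO against 3 ApoE libraries, with a quasi-likelihood test and Benjamini-Hochberg adjustment. Each standard error was taken as the size of the log2 fold change divided by the root of the F statistic. Log2 CPM used a prior count of 2, and ratios a pseudocount of 0.5 counts. Alternatives used limma 3.58.1 and DESeq2 1.42.0. The fit was tested on simulated data. There, changes were placed only in genes at levels above those of the lowest lymphocyte genes, so that run does not cover the lowest. The rule named all members, Nr4a1 and Apoe and, of each of the 14 other lists, up to 3 genes with the smallest p; of 6 lists of wall, heart and blood markers only list values are printed; Chst4 and Madcam1 were chosen after their values were seen. Members, lists and tests were chosen with earlier results of these data known. Chi-square per gene was at least 34.0 for each pair of libraries, so none repeated another.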

Additional observations from a re-analysis of the deposited data

Results flagged for a closer look

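In Cd8a, the DKO 3 library (10.3 CPM) lay far from the other DKO libraries (3.07 to 3.97 CPM): its gap to the nearest was 0.876 of the range of the 4 libraries, above Dixon's 95% critical value. It was the only library to pass that value among 32 sets of 4 DKO values examined, and chance passes about 1 in 20. DKO 3 was also the highest library for the other 28 lymphocyte genes, with a smaller gap relative to the range.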

How the results depend on the processing

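Depth limits the genes with few counts: Ncr1 held 4 to 8 counts per library, and in ApoE 3 Cr2, Pax5 and Foxp3 held 1, 2 and 3. No lymphocyte gene was called by edgeR under the alternatives run, nor by DESeq2 or by limma on log2 FPKM; voom with quality weights called 2 T and NK genes higher. Over all genes, DESeq2 called 461 higher and 681 lower, and voom 902 higher and 1467 lower, the cause of which was not tested. Limma on log2 FPKM with a pseudocount of 1 or 0.1 called 1 higher, and without a filter 0 lower. With ApoE 2 and ApoE 3 left out, 0 were lower. Leaving out 1 library gave 0 to 4 higher and 0 to 2 lower. The B median log2 fold change then ranged from -0.042 to 2.42 and the T and NK median from 0.41 to 0.92; the Cd79a to Cd3e difference ranged from -0.42 to 1.23. Fold changes that reversed when 1 library was left out ranged from -0.14 to 2.88 for Cd79a, -0.21 to 1.76 for Cd79b, -0.46 to 2.63 for Pax5, -0.20 to 3.64 for Cr2, -0.39 to 3.58 for Fcer2a and -0.10 to 0.72 for Ctla4, which was also -0.22 without ApoE 2 and ApoE 3. Other alternatives moved the medians without a change of sign, to 2.05 (B genes, voom) and to 0.32 (T and NK genes, log2(FPKM + 1)). With log2(FPKM + 0.1) the T and NK median was 0.64, so the lower value depends on the pseudocount. The replicate numbers did not pair the libraries (same-number correlations of -0.39, 0.70 and 0.0036), and 1 of the 3 numbers correlated best with its own. With the replicate block and without DKO 4, 0 genes were called lower, and the medians were 1.49 for B and 0.82 for T and NK genes. The Foxp3 to Cd3e difference was 0.15 with a pseudocount of 2 counts.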

Other observations

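The following comparisons within the lymphocyte genes, chosen after their values were seen and given without a test, set the libraries apart in other ways. Cd3d and Cd3e, neighbours on chromosome 9 whose RefSeq (GRCm38.p6) spans lie 11682 bases apart, were counted at 60 and 82, 46 and 68, 106 and 127, and 25 and 43 in DKO 1 to DKO 4, and at 42 and 33, 64 and 53, and 15 and 12 in ApoE 1 to ApoE 3. The ratio of Cd3d to Cd3e counts was thus 0.581 to 0.835 in the DKO libraries and 1.21 to 1.27 in the ApoE libraries, without overlap. In FPKM it was 0.249 to 0.382 in DKO and 0.641 to 0.840 in ApoE. The separation was not particular to this pair. FPKM ratios of Cd4, Cd8a, Icos and Ctla4 to Cd3e, genes on chromosomes 6 and 1, were also lower in DKO without overlap. For Cd4 the ratio was 0.758 to 1.38 in DKO and 1.645 to 3.67 in ApoE. For Icos it was 0.138 to 0.185 in DKO and 0.195 to 0.696 in ApoE. The remaining T and NK genes overlapped in this ratio. All of these ratios share the denominator Cd3e, which had a log2 fold change of 1.24, so they are not separate results. How many of all genes would lie without overlap in a ratio to Cd3e was not examined. The ratio of Cd3g to Cd3e counts overlapped (1.23 to 1.51 in DKO, 1.08 to 2.18 in ApoE).

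Counts of Cd22 were 2.33 to 3.74 times those of Cd79a in the DKO libraries. In ApoE 1 to ApoE 3 they were 4.40, 1.81 and 13.2 times those of Cd79a. In ApoE 3, the library with the fewest B gene counts, Cd79a held only 9 counts. In FPKM, Cd79b, Blk, Fcer2a, Bank1 and Fcrla also had their highest ratio to Cd79a in ApoE 3 (5.08 for Cd79b, 1.37 for Bank1). Ms4a1, Pax5 and Cr2 did not. Cd4 counts were 2.5 to 4.53 times those of Cd3e in DKO, and 5.33, 5.96 and 9.67 times in ApoE 1 to ApoE 3. Unlike the ratio of Cd22 to Cd79a, that of Cd4 to Cd3e did not overlap between the groups. In ApoE 3 it rests on 12 counts of Cd3e. B genes without Cd22, summed, were 0.368 to 0.922 of the summed T and NK genes without Il7r in DKO, and 0.251, 1.32 and 0.236 of them in ApoE 1 to ApoE 3.

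The genes of high endothelial venules Chst4 and Madcam1, with few counts, had the same 2 highest libraries as Glycam1. Chst4 was highest in DKO 3 with 1.24 CPM and in ApoE 2 with 1.06 CPM, and did not exceed 0.327 CPM elsewhere. Madcam1 had 0.444 CPM in DKO 3, 0.368 CPM in ApoE 2 and 1 other library above 0.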
